A study of Mus musculus with 8 samples.

Results

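The angiopoietin and Tie receptor axis was followed through 3491 single-cell transcriptomes of the mouse liver by 5 genes chosen by name: Angpt1 and Angpt2, which encode secreted angiopoietins, Tek and Tie1, which encode the Tie receptor tyrosine kinases, and Ptprb, which encodes the vascular endothelial protein tyrosine phosphatase. They are 5 of the 46517 gene rows of the count table, and all 5 were found. Each was described across the 4 cell classes, the 24 cell annotations, and the 30 coarser (multilevel) and 49 finer (community) clusters that the authors assigned to the cells.

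The study sorted living cells of dissociated livers into plates and sequenced each cell by Smart-seq2, a full-length method in which a count is a sequenced read. Its 8 samples are the male and the female pool of the endothelial, mesenchymal, immune and epithelial cells. The mice were adults on a C57BL6/J background, 8 weeks to 1 year of age by the study's methods. Endothelial cells were taken by antibodies to CD31 or VE-cadherin or by Cldn5-GFP, mesenchymal cells by heterozygous Pdgfra-H2bGFP, Pdgfrb-GFP or Acta2-GFP reporters or an antibody to PDGFRα, cholangiocytes by EPCAM, macrophages by CD68, and hepatocytes as unselected living cells. The reporters and antibodies decide which cells of a class were caught, and the liver was not perfused before dissociation.

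The pools held 655 male and 451 female endothelial cells, 998 and 339 mesenchymal cells, 255 and 396 immune cells, and 358 and 39 epithelial cells. Their total counts ranged from 6399550 to 218419420, and the median count per cell from 88932 to 321121. The labels name no mouse, and none of the 22 plates mixed the sexes. Sex, plate and mouse therefore cannot be told apart, and the spread between 2 pools includes all of them. The cell types in the 2 pools of a class also differed, which enters the class levels and their spread. The male epithelial pool held 157 cholangiocytes and 201 hepatocytes, and the female pool 37 and 2. Arterial smooth muscle cells were 127 of the 998 male and 110 of the 339 female mesenchymal cells. The female mesenchymal pool came from 1 plate. The summed level of 10 endothelial marker genes was 10127 and 10095 CPM (counts of a gene per 1000000 counts of the pool) in the male and female endothelial pools, and between 145 and 723 CPM in the other 6 pools, so the class labels and the markers went together.

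Angiopoietins are secreted proteins that bind Tek, also known as Tie2, on the surface of endothelial cells. Angpt1 is known as the activating ligand made by perivascular cells, and it keeps vessels quiet and tight. Angpt2 is known as a context-dependent ligand that can oppose Angpt1 or activate Tek weakly, and it takes part in vessel remodelling and in lymphatic development. Angpt4 is a further ligand of Tek. Tie1 binds no angiopoietin firmly on its own and modulates Tek within a complex, and Ptprb removes phosphate from Tek and from VE-cadherin.

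The levels are CPM of the summed counts of a pool. Comparisons used edgeR's quasi-likelihood test on summed counts of pools with at least 5 cells, with p-values adjusted over all genes tested, and a gene was called where the adjusted p was below 0.05 and its level differed by 1 or more on the log2 scale. Fold changes are given with their standard error (SE). The p-values measure the spread between pools, which may be technical.

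Angpt1 was a gene of cholangiocytes, the bile duct epithelium, and of venous and fibroblastic mesenchymal cells. In cholangiocytes its level was 137.82 CPM in the male pool and 117.12 CPM in the female pool. Both pools lay above every pool of every other annotation. By finer cluster this did not hold. The mesenchymal cluster m6c had 156 CPM in 21 male cells and 68.4 CPM in 5 female cells. Next among the annotations came the venous smooth muscle cells (venSMC), at 65.4 and 58.0 CPM in the male and female pools. The second layer cells (SLC), which the study assumes to be cells outside the muscle of the veins, had 81.5 and 43.0 CPM. The ranges of venSMC and SLC overlapped, and the ranges of cholangiocytes and venSMC did not. As a mean over cells of each cell's own CPM, Angpt1 in cholangiocytes was 111 and 58.1 CPM, so the female value rested in part on its deeper cells, and the highest value in another annotation was 57.3 CPM, in male SLC.

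Cholangiocytes had all 3 of their marker genes, with summed levels of 1921 and 2388 CPM. Of 157 male cholangiocytes, 76 held a count of Angpt1 (48.4%, exact 95% interval 40.4 to 56.5%), and of 37 female cells 22 did (59.5%, 42.1 to 75.2%). At 20 counts or more the numbers were 48 of 157 (30.6%) and 4 of 37 (10.8%). In the 5 male plates with at least 5 cholangiocytes the level ran from 35.1 to 275 CPM, so the plates of 1 annotation differed more than the 2 pools did. The male cholangiocytes with 20 counts had a median summed mesenchymal marker level of 20.4 CPM, against 24.2 CPM in those with fewer.

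In the second epithelial annotation, the hepatocytes, Angpt1 was at 0.586 CPM in male cells. The female pool held only 2 hepatocytes. Among the mesenchymal annotations, Angpt1 was 38.9 and 20.4 CPM in portal fibroblasts, 44.8 and 12.8 CPM in peribiliary fibroblasts (PeriBilFB), 30.0 and 22.8 CPM in the fibroblasts annotated Wt1_FB, and 26.5 CPM in male hepatic stellate cells (HSC). These neighbours in the order overlapped in their pool ranges. Of the 2 finer clusters of Wt1_FB, m11c held 44.9 and 64.8 CPM in 48 male and 5 female cells and m12c 0.634 and 11.96 CPM in 34 and 26 cells, so the value of the annotation came mainly from m11c. The female value of m11c rested on 1 cell.

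Arterial smooth muscle cells (artSMC) had little Angpt1, at 0.608 and 6.67 CPM in the male and female pools. Large or elastic vein smooth muscle cells (elaSMC) had none in 9 male cells and 31.8 CPM in 25 female cells. Capsular stellate cells (cHSC), which lie at the liver surface, had 16.4 and 0.665 CPM, so the pools disagreed in both of these groups. No endothelial annotation exceeded 1.87 CPM, the value of 3 counts in 9 male lymphatic cells.

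The counts of Angpt1 may include reads of a neighbour. Angpt1 lies on the minus strand of chr15:42424723-42676977 (GRCm38), and its exons share 737 bases with those of Gm17473 on the plus strand. Smart-seq2 does not mark the strand, so reads of the 2 genes there cannot be told apart. Gm17473 held 1020 counts in male cholangiocytes beside 7750 of Angpt1.

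Angpt2 was a gene of smooth muscle, with smaller amounts in other mesenchymal cells and in a subset of the sinusoidal endothelium. In artSMC its level was 321 and 209 CPM in the male and female pools. In venSMC it was 268 and 195 CPM, and in elaSMC 116 and 161 CPM. The ranges of artSMC and venSMC overlapped, and both pools of venSMC lay above both pools of elaSMC. As a mean over cells, artSMC had 242 and 195 CPM and venSMC 236 and 243 CPM, so venSMC then came first by the mean of the pools. All 5 mural markers were present in these annotations, with summed levels of 7166 to 15182 CPM. Among other mesenchymal cells, SLC had 11.2 and 66.6 CPM of Angpt2 and portal fibroblasts 10.7 and 30.5 CPM. Male HSC had 51.7 CPM, with 98.5% of the counts in 3 of 69 cells.

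Angpt2 was concentrated in a part of the muscle cells. In male artSMC, 32 of 127 cells (25.2%) held at least 20 counts, and in female artSMC 43 of 110 (39.1%) did. In venSMC the numbers were 32 of 89 (36.0%) and 8 of 22 (36.4%). These cells carried 98.6 to 99.0% of the Angpt2 counts of their pools. In plates with at least 5 cells, Angpt2 ran from 118 to 435 CPM over the 3 male plates of artSMC and from 0 to 704 CPM over the 6 male plates of venSMC.

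A single count said less than 20 counts did. In the female mesenchymal plate 81.8% of artSMC and 66.7% of portal fibroblasts held at least 1 count of Angpt2, while at 20 counts the shares were 39.1% and 4.30%. The male shares at 1 count were 37.0% and 13.5%. The part of free RNA in single counts was not tested, and the shares at 20 counts are used for that reason.

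The finer clusters divided venSMC. Cluster m8c, the portal vein smooth muscle of the study, held 334 and 302 CPM of Angpt2 and 50.2 and 14.1 CPM of Angpt1 in the male and female pools. Cluster m9c, its venous smooth muscle, held 112 and 114 CPM of Angpt2 and 102 and 96.3 CPM of Angpt1. Both pools of m8c were higher in Angpt2 and lower in Angpt1 than both pools of m9c. Clusters were drawn on the same cells, so this is a description and carries no test. Outside venSMC, cluster m6c held 156 and 68.4 CPM of Angpt1, a range that overlapped those of m9c and of the cholangiocytes.

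Part of the cells held both ligands. Of 89 male venSMC, 13 held at least 20 counts of Angpt1 and 32 at least 20 of Angpt2, and 6 held both. Of 22 female venSMC, 5 and 8 did, and 2 held both. Per kilobase of exon, which allows levels of different genes to be compared, Angpt2 was 72.7 and 52.8 CPM in the venSMC pools and Angpt1 12.6 and 11.1 CPM. In cholangiocytes Angpt1 was 26.5 and 22.5 CPM per kilobase and Angpt2 0.0819 and 1.30 CPM per kilobase. The 2 ligands thus ranked in opposite order in these annotations, in both pools.

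**Figure D1:**
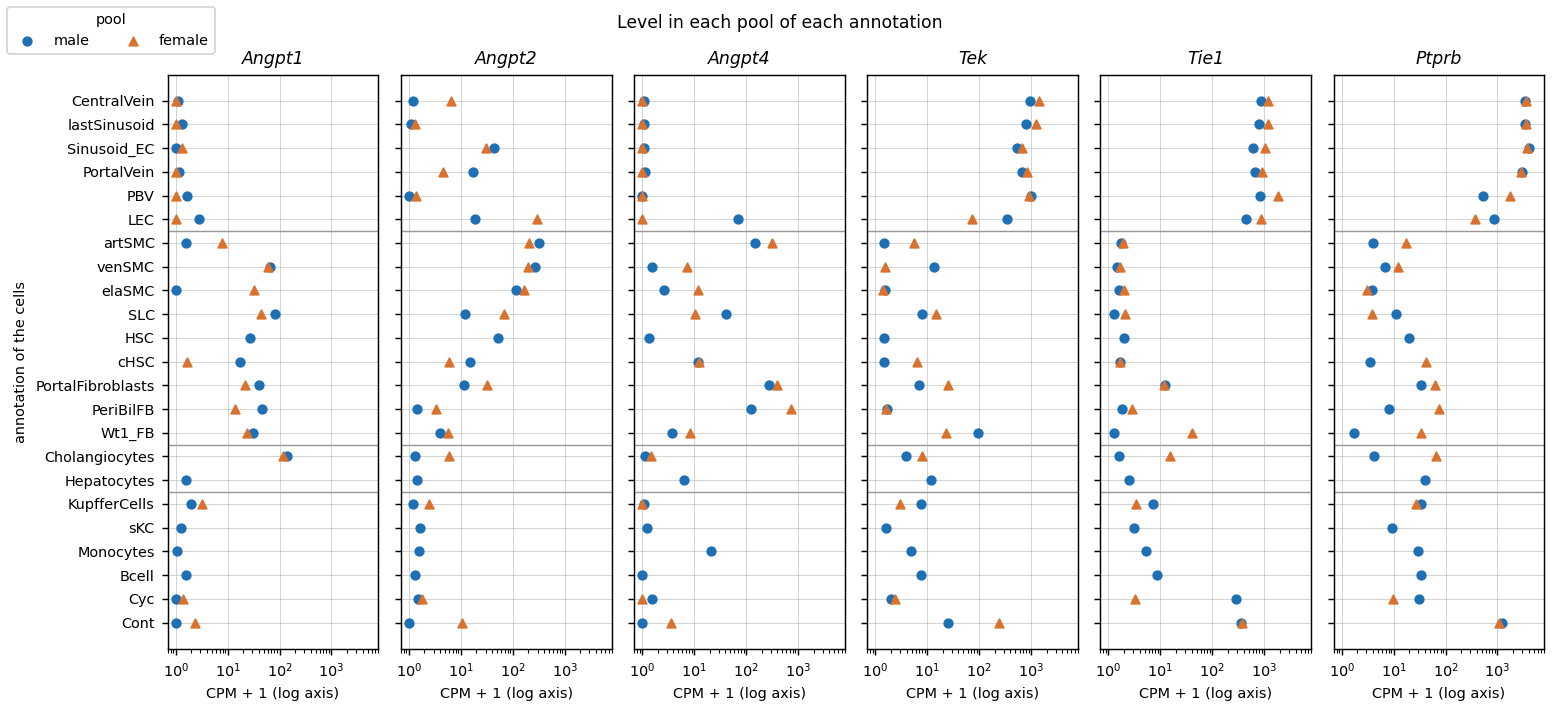
Level of Angpt1, Angpt2, Angpt4, Tek, Tie1 and Ptprb (CPM + 1, log axis) in the male pool (blue circles) and the female pool (orange triangles) of each annotation with at least 5 cells; grey lines part the endothelial, mesenchymal, epithelial and immune annotations. Tie1 and Ptprb lie to the right in the 6 endothelial annotations and in Cont, Tek does so in 5 of the 6 and is lower in LEC (336 and 72.6 CPM), Angpt1 is highest in Cholangiocytes (137.82 and 117.12 CPM), and Angpt2 is highest in artSMC in the male pool (321 CPM) and in LEC in the female pool (292 CPM, against 209 CPM in artSMC).

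Angpt4 was found in portal fibroblasts, at 275 and 394 CPM in the male and female pools, in PeriBilFB, at 125 and 730 CPM, and in artSMC, at 150 and 319 CPM. No pool of another annotation with at least 5 cells exceeded 69.9 CPM. That highest other value came from 1 of 9 male lymphatic cells. Arterial muscle therefore held Angpt2 and Angpt4 with little Angpt1, and portal fibroblasts held all 3. Per kilobase of exon, portal fibroblasts had 7.48 and 3.92 CPM of Angpt1 and 2.89 and 8.25 CPM of Angpt2, so the order of these 2 differed between the male and female pools. Of the 1081 female counts of Angpt2, 503 came from the 6 of 93 cells in the finer cluster m14c, at 245 CPM beside summed endothelial markers of 3664 CPM. At 20 counts, 8 male and 14 female artSMC held both Angpt2 and Angpt4.

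**Figure D2:**
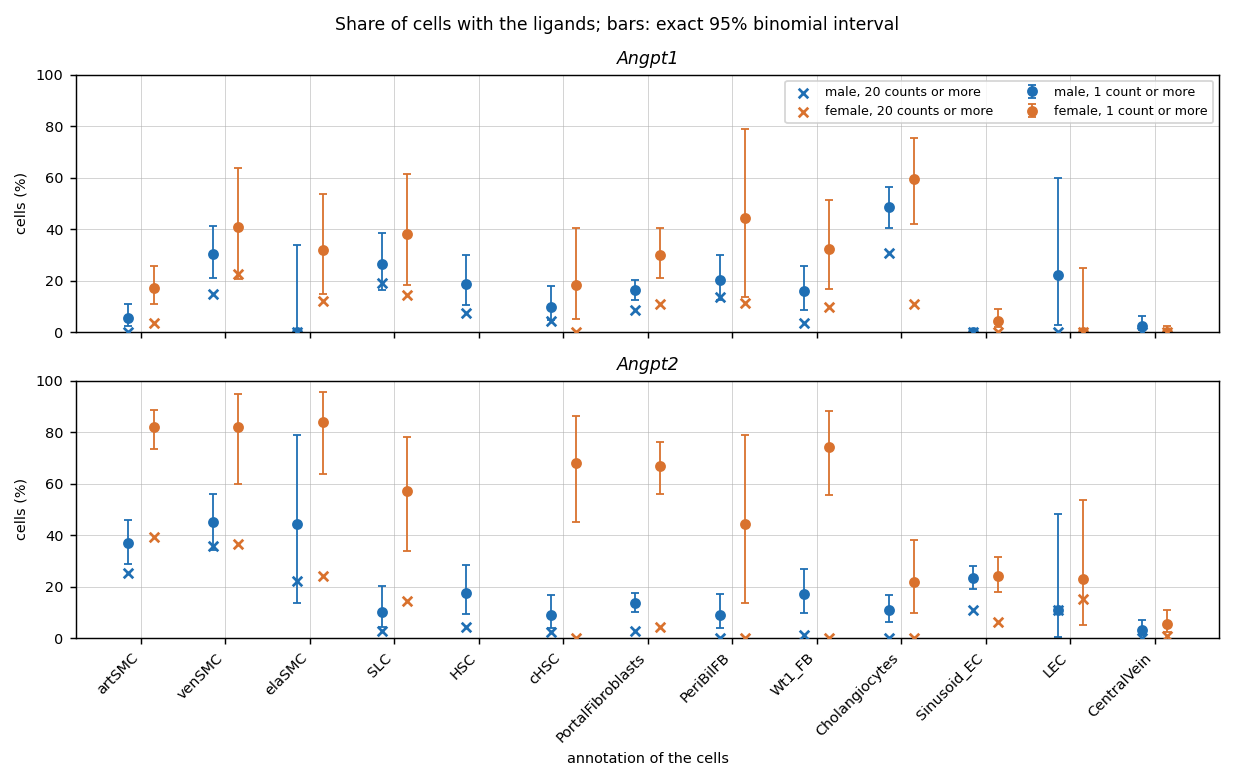
Percentage of cells of 13 annotations with at least 1 count (circles, with exact 95% binomial intervals that cover counting error only) and at least 20 counts (crosses) of Angpt1 and Angpt2, in the male (blue) and female (orange) pools. At 20 counts Angpt1 reached 30.6% of male cholangiocytes and Angpt2 39.1% of female artSMC, and at 1 count the female circles of Angpt2 lie above the male ones in all mesenchymal annotations with both pools.

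Among endothelial annotations, Angpt2 was highest in Sinusoid_EC in the male pool and in lymphatic cells in the female pool. In the sinusoidal annotation Sinusoid_EC it was 43.4 and 30.0 CPM in the male and female pools, and in lastSinusoid, the last part of the sinusoid before the central vein, 0.0824 and 0.337 CPM. At 20 counts 42 of 385 male cells (10.9%) and 10 of 157 female cells (6.37%) carried it, and of these 33 and 7 also held at least 20 counts of Tek. The ligand and its receptor were thus in the same cell in part of the sinusoid. The median summed endothelial marker level of these cells was 11077 and 15952 CPM, against 10990 and 14720 CPM in Sinusoid_EC with fewer counts, and their median mesenchymal and mural marker sums were 0.

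Among the finer clusters the highest sinusoidal value was in e8c, at 127 and 82.9 CPM. In the endothelium of the portal vein Angpt2 was 16.5 and 3.52 CPM, of the central vein 0.198 and 5.60 CPM, and of the peribiliary vessels (PBV) 0 and 0.356 CPM. In the portal vein 1 male cell held 95.4% of the counts, and in the central vein 1 female cell held 93.5%. By plate, Sinusoid_EC ran from 0 to 102 CPM over 8 male plates and from 1.39 to 42.8 CPM over 4 female plates.

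Lymphatic endothelial cells (LEC, cluster e4) had all 4 lymphatic markers, summed at 5748 and 5841 CPM. Angpt2 was 18.1 CPM in 9 male LEC, close to the 16.5 CPM of the male portal vein, and 292 CPM in 13 female LEC, a gap that rested on few cells. It was found in 1 of 9 and 3 of 13 cells. The single male cell also had a summed mural marker level of 11755 CPM, where the other male LEC had a median of 0, and the 2 female cells with 20 counts had a median of 0.

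The receptor genes Tek and Tie1 lie on the same chromosome, Tek at chr4:94739289-94874976 on the plus strand and Tie1 at chr4:118471191-118490061 on the minus strand (GRCm38). Angpt2 is at chr8:18690263-18741562 on the minus strand and Ptprb at chr10:116275523-116389535 on the plus strand. Angpt2 lies within the span of Mcph1 and shares 0 exon bases with it. The sequences before the starts of Tek and Tie1 are shown, from RefSeq (GRCm38.p6), because the ETS factors of endothelial cells are known to bind a core of GGAA. Capitals mark GGAA on either strand (TTCC on the other).
Tek, chr4:94739039-94739288, plus strand: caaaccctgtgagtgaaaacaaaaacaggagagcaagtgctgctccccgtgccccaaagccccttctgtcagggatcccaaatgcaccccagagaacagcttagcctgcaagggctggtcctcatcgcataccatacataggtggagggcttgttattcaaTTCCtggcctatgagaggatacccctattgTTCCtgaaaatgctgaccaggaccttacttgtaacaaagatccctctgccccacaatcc
Tie1, chr4:118490062-118490099, minus strand: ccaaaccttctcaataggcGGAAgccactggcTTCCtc

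The 250 bases before Tek held the core 2 times, and 76.8% of 32851 promoters of that length held it at least as often. For Tie1 the 250 bases held it 7 times, and 3.82% of promoters did so; the 38 bases printed are those outside an annotated exon. Of all promoters 93.4% held it at least once. A match of 4 letters is a description and no binding site.

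Tek was at a high level in every annotated type of blood vessel endothelium and low in lymphatic cells. No annotation is of arterial endothelium, and the study lists endothelial cells of the hepatic artery as absent from its data. It was highest in the central vein, at 932 and 1428 CPM in the male and female pools, and in lastSinusoid, at 806 and 1259 CPM. PBV followed at 1017 and 909 CPM. These 3 overlapped in their ranges, and all of their pools but that of the male lastSinusoid lay above both pools of the portal vein.

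The portal vein had 679 and 844 CPM of Tek and Sinusoid_EC 532 and 679 CPM. Their ranges touched, and both lay above LEC, at 336 and 72.6 CPM. The female level was above the male in 4 of the 6 endothelial annotations and below it in PBV, with 5 and 9 cells, and in LEC. Plates spread widely, from 521 to 1945 CPM over 7 male plates of the central vein and from 396 to 1063 CPM over 8 male plates of Sinusoid_EC.

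Tie1 was more even along the vessels than Tek. It was 831 and 1838 CPM in PBV, 851 and 1173 CPM in the central vein and 774 and 1195 CPM in lastSinusoid. In Sinusoid_EC it was 618 and 1042 CPM, in the portal vein 661 and 909 CPM, and in LEC 447 and 869 CPM. Each neighbour in this order overlapped with the next, and the female pool was the higher one in all 6. LEC thus kept Tie1 at a level overlapping that of the blood vessels while their Tek was lower.

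Most endothelial cells held both Tek and Tie1. Of 655 male endothelial cells, 559 (85.3%) held at least 1 count of both, and of 451 female cells 437 (96.9%) did. Counted singly, Tek was in 597 male and 441 female cells and Tie1 in 608 and 447. Genes this common share most cells whether or not they go together. At 20 counts 55.9% and 57.2% held both, beside 468 and 319 cells with Tek and 480 and 341 with Tie1. Part of the cells thus held fewer than 20 counts of at least 1 of the 2 genes.

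By annotation, Ptprb was highest in the sinusoid and lower in the portal, peribiliary and lymphatic vessels. It was 4114 and 3717 CPM in Sinusoid_EC, 3389 and 3609 CPM in lastSinusoid and 3316 and 3601 CPM in the central vein. In the portal vein it was 2957 and 2849 CPM, in PBV 534 and 1716 CPM and in LEC 840 and 376 CPM. Both pools of Sinusoid_EC lay above all pools of the other annotations, and PBV and LEC overlapped at the bottom. As a mean over cells, lastSinusoid reached 3920 CPM in male cells, above female Sinusoid_EC at 3767 CPM, so that part of the order was not firm. The plates agreed closely here, with 3429 to 4643 CPM over 8 male plates and 3556 to 3927 CPM over 4 female plates of Sinusoid_EC.

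Per kilobase of exon the gap between Ptprb and the receptors was smaller, since its exons span 13.333 kb against 4.712 kb for Tek. In Sinusoid_EC Ptprb was 309 and 279 CPM per kilobase and Tek 113 and 144. In the female central vein Tek was 303 CPM per kilobase and Ptprb 270, so their order there turned round, and in PBV Tek was at 216 and 193 and Ptprb at 40.0 and 129 CPM per kilobase. In LEC Tie1, at 90.8 and 177 CPM per kilobase, was above both Tek and Ptprb.

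**Figure D3:**
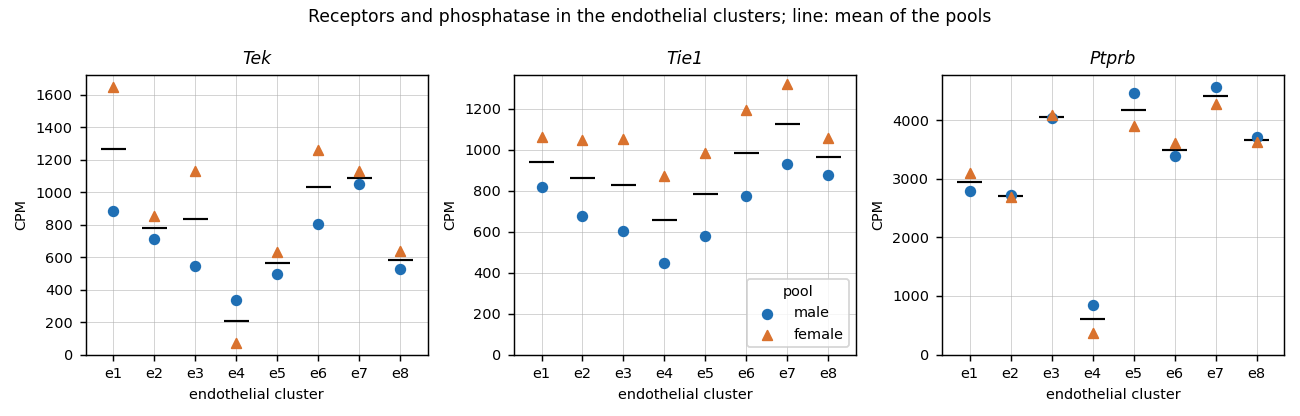
Level of Tek, Tie1 and Ptprb (CPM, linear axis from 0) in the 8 coarser endothelial clusters, with a circle for the male pool, a triangle for the female pool and a line for their mean. Tek is lowest in the lymphatic cluster e4 (336 and 72.6 CPM), Ptprb falls from e7 (4572 and 4274 CPM) to e4 (840 and 376 CPM), and the female Tie1 point is above the male one in all 8 clusters.

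The 8 coarser endothelial clusters divided both the sinusoid and the central vein, whose annotation holds the cells of e1 (88 male and 64 female) and of e7 (71 and 79). Tek was 884 and 1647 CPM in e1, 1050 and 1129 CPM in e7, and 499 and 629 CPM in the sinusoidal cluster e5. Ptprb was highest in e7, at 4572 and 4274 CPM, a range that overlapped that of e5, at 4460 and 3906 CPM, and it was 2798 and 3108 CPM in e1. The place of the sinusoid at the top by annotation thus did not hold against this cluster of the central vein. Clusters e5 and e1 thus stood in opposite order for the receptor and its phosphatase, in both pools.

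The comparison of endothelial cells with the mean of the other 3 classes asked where the receptors are found. Of the 5 genes 4 were called, 3 higher and 1 lower, where 8.28% of all genes tested were called. Tek was at 659 and 1092 CPM in endothelial cells and between 5.3 and 12.2 CPM in the other 6 pools, a log2 fold change of 6.59 (SE 0.36, adjusted p = 0.00023). Tie1 was at 687 and 1120 CPM against 0.9 to 19.2 CPM (6.58, SE 0.74, adjusted p = 0.0025). Ptprb was at 3717 and 3364 CPM against 16.1 to 69.4 CPM (6.47, SE 0.46, adjusted p = 0.00054).

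Angpt1 was at 0.1 CPM in both endothelial pools and lower than the mean of the other classes by 7.73 (SE 0.95, adjusted p = 0.0033). Angpt2 was at 27.4 and 18.1 CPM and was not called (1.88, adjusted p = 0.22). It was called with no filter on low counts, with sums per plate and without the female epithelial pool.

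The comparison of mesenchymal cells asked where the ligands are found. Here 4 of the 5 genes were called, 2 higher and 2 lower, where 11.8% of all genes tested were called. Angpt1 was at 37.4 and 19.6 CPM and its log2 fold change was 3.79 (SE 0.54, adjusted p = 0.0034), although the epithelial pools, at 84.4 and 114 CPM, lay above the mesenchymal ones. The contrast is with the mean of the log levels of 3 classes, of which only the epithelial class was high. Angpt2 was at 66.9 and 99.5 CPM (4.48, SE 0.81, adjusted p = 0.0095), above all other pools.

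Ptprb was lower in mesenchymal cells by 3.02 (SE 0.58, adjusted p = 0.012), and Tek by 1.51 (SE 0.41, adjusted p = 0.050). The call of Tek stood at the threshold and was lost in 9 of 13 other settings, which were the thinned cells, the sums per plate and the omission of any single pool but the male immune one. The call of Ptprb was lost without the male mesenchymal pool (adjusted p = 0.091). Tie1 was not called (adjusted p = 0.087), and was called lower in 6 of 13 other settings, which were DESeq2, no filter on low counts, the thinned cells, the sums per plate and the omission of either epithelial pool.

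**Figure D4:**
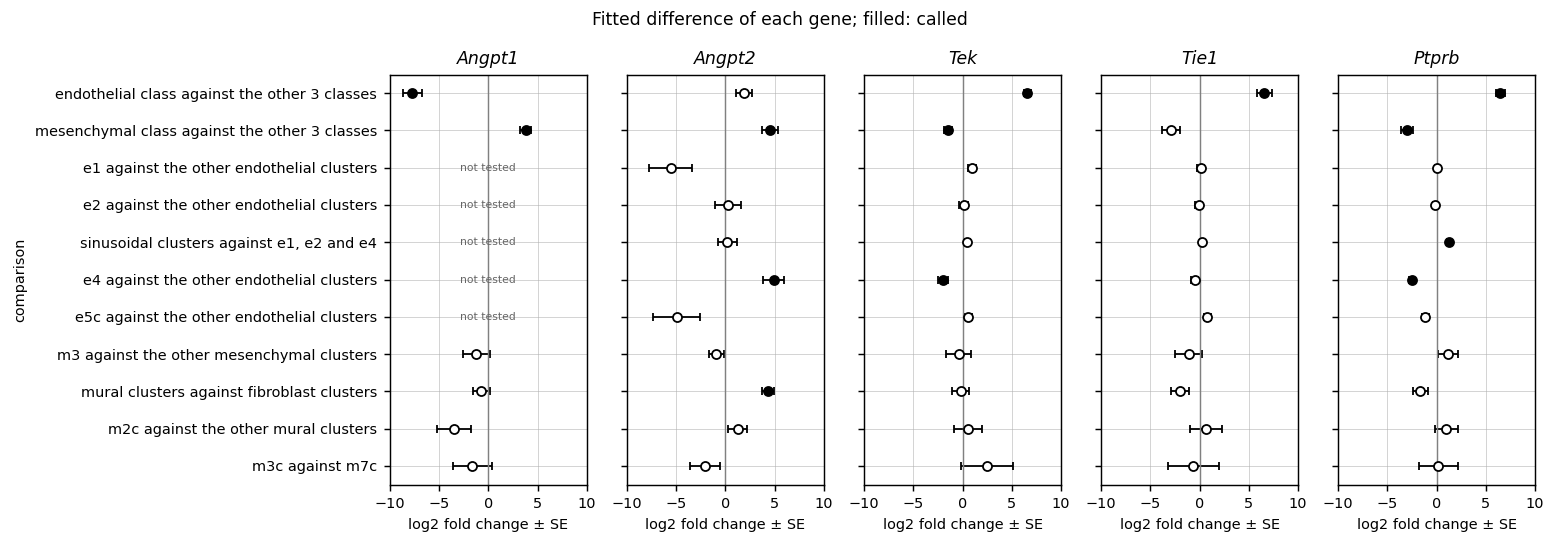
Log2 fold change with its standard error for the 5 genes in the class, endothelial and mesenchymal comparisons (edgeR). Filled symbols mark the called genes; Tek, Tie1 and Ptprb lie between 6.47 and 6.59 in the endothelial class.

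Within the endothelium, cluster e4 was the one with most calls. Of the 4 genes tested there (Angpt1 was below the filter), 3 were called, 1 higher and 2 lower, where 6.80% of genes were. Ptprb was lower in LEC by 2.54 (SE 0.26, adjusted p = 2.1e-05) and Tek by 2.01 (SE 0.51, adjusted p = 0.025), while Angpt2 was called higher by 4.90 (SE 1.08, adjusted p = 0.010). The contrast is with the mean of the log levels of the other clusters, among which e6 had 0.0824 and 0.337 CPM. The male e4 value of 18.1 CPM, from 1 cell with mural markers, lay below the 46.4 CPM of male e3 and the 44.2 CPM of male e5. Tie1 gave -0.51 (SE 0.43) and was not called. The median of all genes in this comparison was -0.42, and with DESeq2's size factors 0.19.

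The sums behind e4 were of 9 and 13 cells. With the sex pool as a block the calls of Tek (adjusted p = 0.053) and Angpt2 (adjusted p = 0.061) were lost, and with DESeq2 that of Tek (-1.55, adjusted p = 0.085).

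In the comparison of the sinusoidal clusters with e1, e2 and e4, cluster e7 was counted as sinusoidal, although all of its cells are annotated as central vein. Here 1 of the 4 genes was called, where 1.92% of genes were. Ptprb was higher in the clusters counted as sinusoidal by 1.24 (SE 0.15, adjusted p = 0.00029). With e7, which held high levels of both Tek and Ptprb, moved to its annotated side, it was 0.72 (adjusted p = 0.011) and no longer reached the fold. Tek and Tie1 were not called.

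Cluster e1 was compared with all other endothelial clusters, which include e7, the other cluster of the central vein. None of 4 genes was called in e1 by edgeR, where 1.41% of genes were, although 2 (Tek and Angpt2) had an unadjusted p under 0.05. DESeq2 called 1, Angpt2. The log2 fold change of Tek in e1 was 0.94 (adjusted p = 0.41). It was 1.28 (adjusted p = 0.017) in sums of at least 10 cells and 1.65 (adjusted p = 0.00052) in sums per plate, and so depended on how the cells were summed.

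In the portal vein cluster e2 none of 4 was called, with 0 at an unadjusted p under 0.05 and 0 by DESeq2, where 1.93% of genes were called. In PBV (community cluster e5c, 5 and 9 cells) none of 4 was called, where 8.60% of genes were, 2 (Tie1 and Ptprb) had an unadjusted p under 0.05 and DESeq2 called Angpt2. There the fold changes were -1.17 (adjusted p = 0.054) for Ptprb, 0.78 for Tie1 and 0.54 for Tek beside a median of all genes of -1.58, or -0.49 with DESeq2.

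Within the mesenchyme, the comparison of mural with fibroblast clusters called 1 of 5 genes, where 3.21% of genes were called. Angpt2 was higher in mural cells by 4.34 (SE 0.59, adjusted p = 0.00022), and with sums per plate it was 3.88 with an adjusted p of 0.16. Angpt4 was lower in mural clusters by 2.95 (SE 0.54, adjusted p = 0.0035), although artSMC belong to them. Against the other mural clusters, artSMC (m2c) were higher in Angpt4 by 5.09 (SE 0.92, adjusted p = 0.0011).

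None of the 5 genes was called by edgeR in m2c, where 2.44% of genes were. Angpt1 had an unadjusted p under 0.05 there, and DESeq2 called it lower (-3.60, adjusted p = 0.039). In the stellate cells (m3) none of 5 was called, with 0 at an unadjusted p under 0.05 and 0 by DESeq2, where 2.70% of genes were. In capsular against other stellate cells (m3c against m7c) none was called, again with 0 and 0, where 0.0234% of genes were. Only 4 female m7c cells were analysed and gave no sum, so m7c was 1 male sum of counts that is assumed to vary like the other clusters, and the absence of calls says little.

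Tek was also found in a few mesenchymal cells that lacked the other receptor. At 20 counts or more it was in 15 of 998 male mesenchymal cells, at 71.4 to 2105 CPM, and these held 93.3% of the male counts. All 15 had 0 counts of Tie1 and none had 20 counts of Ptprb. Their summed endothelial markers had a median of 23.4 CPM and a highest value of 1019 CPM, where the 5th percentile of endothelial cells was 3969 CPM. All 15 lay below that percentile.

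Of these 15 cells, 9 were Wt1_FB, 3 portal fibroblasts, 2 venSMC and 1 SLC. The 9 Wt1_FB, of 82 cells, came from 1 of 3 plates. The level of Tek in Wt1_FB was 94.2 CPM in the male pool and 22.5 CPM in the female pool, and between 0 and 129 CPM over the male plates. By finer cluster, Tek was 124 and 43.5 CPM in m11c and 34.6 and 17.04 CPM in m12c. The highest male level in a finer mesenchymal cluster with at least 5 cells was 163 CPM in m6c, where 2 of 21 cells held 20 counts or more and the 5 female cells had 0.

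In the female mesenchymal plate, Tek was at 20 counts or more in 14 of 339 cells, at 92.7 to 385 CPM. These differed from the male cells: Tie1 was 0 in 7 of them and at 20 counts or more in 3, and Ptprb was at 20 counts or more in 5. Their summed endothelial markers had a median of 775 CPM, with a highest value of 5948 CPM. Of the 14 cells, 4 lay in cluster m14c, whose 6 female cells, annotated as portal fibroblasts, had 217 CPM of Tek, 175 CPM of Tie1 and 934 CPM of Ptprb beside summed endothelial markers of 3664 CPM and mesenchymal markers of 4399 CPM. The part of endothelial RNA in the female values was not tested.

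**Figure D5:**
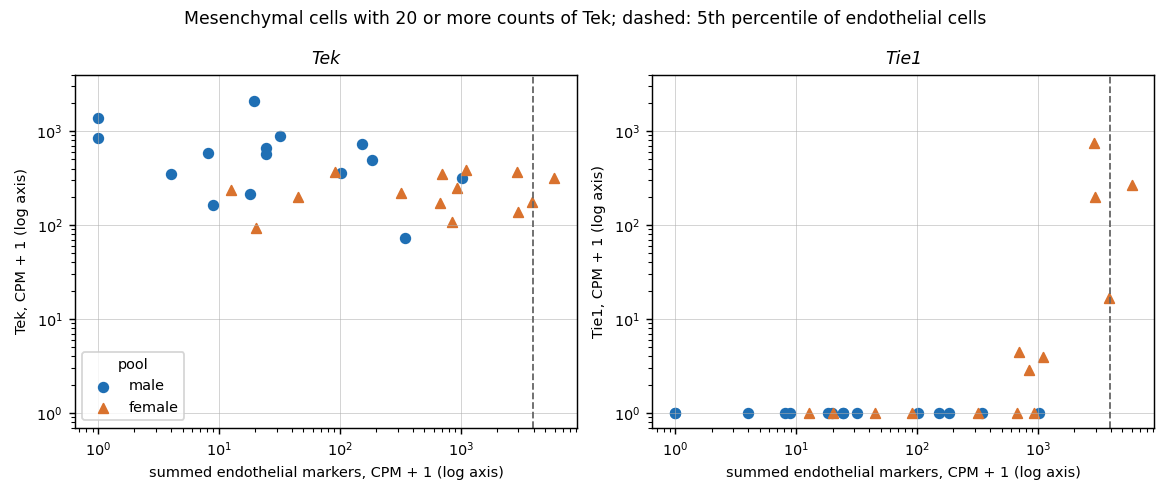
Level of Tek (left) and Tie1 (right) against the summed endothelial markers (CPM + 1, log axes) in the mesenchymal cells with at least 20 counts of Tek, with circles for male and triangles for female cells and a dashed line at the 5th percentile of the endothelial class (3969 CPM). The 15 male cells all lie left of the line and at 0 for Tie1, and of the 14 female cells 1 lies right of the line.

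Outside endothelium and mesenchyme, the highest levels of Ptprb were in the annotation Cont, beside endothelial markers. The annotation Cont (community cluster i9c) had 358 and 371 CPM of Tie1, 1202 and 1052 CPM of Ptprb and 23.9 and 236 CPM of Tek in 6 male and 20 female cells, beside summed endothelial markers of 2985 and 5191 CPM. The study set these cells apart by endothelial genes that include Tie1 and Ptprb, so their levels there are a description. Of the 11 female immune cells with 20 counts of Tie1 all 11 were Cont, and of the 30 with 20 counts of Ptprb 12 were.

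Elsewhere in the immune class, Ptprb was at 32.7 and 26.2 CPM in Kupffer cells, the resident macrophages, and at 33.1 CPM in male B cells. At least 1 count was in all 57 male B cells, while 3 held 20 counts. In male hepatocytes Tek was 10.7 CPM and Ptprb 39.6 CPM. Of the 358 male epithelial cells, the 2 with 20 counts of Tek held 81.5% of its counts, and the 5 with 20 counts of Ptprb held 79.7%. Their median summed endothelial markers were 4016 and 2050 CPM, against 20.4 and 19.8 CPM in the cells with fewer counts. In female cholangiocytes Tie1 was 14.1 CPM and Ptprb 63.9 CPM, against 0.605 and 3.22 CPM in male ones, beside summed endothelial markers of 224 and 123 CPM. The part of free endothelial RNA was not tested. The value of 281 CPM of Tie1 in 5 male cycling cells came with 1 cell at 20 counts, which held 99.6% of the counts. That cell had summed endothelial markers of 11715 CPM, against a median of 703 CPM in the others.

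Of a list of 22 other genes of the pathway, 5 were called higher and 3 lower in the endothelial class, beside 8.28% of all genes called in either direction. The higher ones were Kdr (5.97), the VEGF receptor, Cdh5 (4.89), which encodes VE-cadherin, Klf2 (2.83), a flow-induced transcription factor, Itga5 (1.62), a fibronectin integrin subunit, and the adaptor Nck1 (1.29). The lower ones were the adaptors Grb7 (-4.91), Dok2 (-3.26) and Grb14 (-3.18). The median of the list was 0.21 and of all genes 0.04. The values are log2 fold changes.

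In the mesenchymal class 3 were higher and 4 lower, beside 11.8% of all genes. The higher ones were the extracellular protein gene Svep1 (7.73), Angpt4 (7.39) and Grb14 (4.14), and the lower ones Cdh5, Kdr, Dok2 and Grb2, with a list median of -0.17 against 0.02 over all genes. In e4 1 was higher, Svep1 (7.28), and 2 lower, Itga5 (-3.57) and Kdr (-1.27), beside 6.80% of all genes. Svep1 is known as a ligand of Tie1 in lymphatic vessels. Its 227 male counts in e4 were in 2 of 9 cells, of which 1 held 20 or more, and the 13 female cells had 1 count. Kdr was the only one of the 21 tested that was called in the sinusoidal clusters (1.87, beside 1.92% of all genes) and in e1 (-1.06, beside 1.41%). In e2 Kdr was lower by 1.68 and Lect2, a secreted ligand of Tie1, was called higher (6.49), beside 1.93% of all genes. All 106 counts of Lect2 in e2 came from 1 of 60 female cells, and the 68 male cells had 0.

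In the remaining comparisons the list gave 3 lower in e5c (Pik3ca, Ptpn11 and Akt1, beside the median of all genes of -1.58 and 8.60% called), 1 higher in m3 (Dok2, beside 2.70%), 1 higher and 3 lower in mural cells (Grb14 up, and Angpt4, Svep1 and Pik3r1 down, beside 3.21%), 2 higher and 1 lower in m2c (Angpt4 and Klf2 up, and Svep1 down, beside 2.44%) and none of 22 in m3c against m7c (beside 0.0234%). In m3 Dok2 had 72 male and 182 female counts, with 1 cell in each pool at 20 or more.

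Of 7 angiopoietin-like genes, which resemble angiopoietins but do not bind Tek, 1 was lower in the endothelial class (Angptl2, -5.59, beside 8.28% of all genes called), 3 were higher in the mesenchymal class (Angptl2, Angptl6 and Angptl7, beside 11.8%) and 1 was higher in e4 (Angptl2, 7.21, beside 6.80%). The 243 counts of Angptl2 in e4 were in 2 of 9 male cells, of which 1 held 20 or more, and the 13 female cells had 0. In m3 2 were higher and 1 lower (beside 2.70%), in mural cells 2 were lower (beside 3.21%) and in m2c 1 was (beside 2.44%). None was called in e1, e2, the sinusoidal clusters, e5c or m3c against m7c, where 1.41%, 1.93%, 1.92%, 8.60% and 0.0234% of all genes were.

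The genes most like each of the 5 over the 30 coarser clusters were found by Pearson's r of log2(CPM + 1) over 14660 genes. The clusters share pools and plates and fall into 4 classes, so r is a description. Tek, whose upstream sequence was printed beside that of Tie1, was most like Tie1 (r = 0.95), then AU021092 (0.943) and Unc45b (0.939), and Tie1 most like Myct1 (0.978), Arhgef15 (0.974) and Ackr2 (0.971). Ptprb was most like Kdr (0.973), Myct1 (0.971) and Gm16553 (0.969).

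Angpt1 was most like Tmem45a (0.945), Epdr1 (0.931) and Dzip1l (0.927). For Angpt2 the highest r was lower, with AI838599 (0.796), Nexn (0.781) and B130024G19Rik (0.768). Among the 5 genes, the 3 receptor-side pairs had r of 0.931 to 0.961, Angpt1 and Angpt2 0.286, Angpt2 and the receptor-side genes 0.010 to 0.101, and Angpt1 and the receptor-side genes -0.656 to -0.525.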

How the data were processed

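Per the labels and the study's methods, the authors sorted single cells into plates, prepared Smart-seq2 libraries and read single ends, aligned to GRCm38, counted reads per gene, renamed genes to symbols, and removed cells of low quality. The submitters' processing notes name bcl2fastq, Bowtie, Bowtie2, featureCounts, Subread and Seurat, with no versions. Whether the counting used strand is not given in the sources used here. The deposited values are raw counts per gene and cell. The count tables of the 4 classes repeat those of all cells (0 values differed), so the latter was used, with the deposited cell class, annotation and cluster columns. The 92 spike-in rows were left out of totals and tests. Clusters were drawn by the authors on these cells, so differences between them are partly built in.

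The counts of all cells of a cluster in a pool were added up, and CPM computed from these sums. Those with 5 or more cells were analysed with edgeR 4.0.16 (R 4.3.3) with TMM scaling, filterByExpr and its quasi-likelihood test, two-sided, Benjamini-Hochberg adjusted over all genes tested. DESeq2 1.42.0 was an alternative. Others were no filter on low counts, other minimum cells per sum, cells thinned to 50000 counts (13 cells left out), sums per plate, the sex pool as a block, e7 moved, and each pool left out in turn. Shares of cells carry exact (Clopper-Pearson) 95% intervals for counting error only, since reads are not molecules. Exon lengths and positions are those of GENCODE vM21 on GRCm38. The genes named are the 5 genes, called genes of the lists of 22 and 7, and the 3 genes most like each of the 5 among genes that reached 20 CPM in a cluster. The 5 genes and the lists were chosen with earlier results of these data known. Doublets were treated only by the authors' filters.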

Additional observations from a re-analysis of the deposited data

Results flagged for a closer look

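In 9 results the fold change of the male and that of the female sums pointed in opposite directions. Each is an average over the clusters of 1 pool and does not show that every cluster of that pool moved one way. The values are log2 fold changes, and the difference is female minus male. These differences were not tested, since each sex is 1 pool.

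For Angpt2 the difference was -2.64 in the portal vein cluster e2 (-0.24 in female and 2.40 in male cells), -2.28 in the sinusoidal clusters (-1.75 and 0.53) and -3.10 in the stellate cells of m3 (-2.83 and 0.27). For Angpt1 it was -6.36 in m3 (-5.11 and 1.25) and 4.43 in mural against fibroblast clusters (0.24 and -4.19). For Tek it was 2.86 in m3 (0.34 and -2.52) and 2.51 in artSMC of m2c (1.87 and -0.64). For Ptprb it was 2.62 in m2c (2.26 and -0.36) and 0.33 in cluster e1 (0.28 and -0.04). None of these 9 was called in either direction by edgeR with both pools.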

How the results depend on the processing

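Of the values of single genes under other settings, not counting omitted pools, 272 kept their direction and their side of the threshold, 13 passed it, 7 lost it, 16 reversed and 2, the Angpt1 levels of cholangiocytes as a mean over cells, moved by more than the spread. The higher Tek, Tie1 and Ptprb and the lower Angpt1 in the endothelial class, and the higher Angpt1 and Angpt2 in the mesenchymal class, were called in all 13 alternatives with a test. In those that omit a pool, a class left with 1 pool is assumed to vary like the others, which supply the spread. The LEC and PBV sums held 5 to 13 cells, and no endothelial annotation exceeded 1.87 CPM of Angpt1.

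The number of the 5 genes called was 2 to 4 in the mesenchymal class with a pool omitted (2 without the male mesenchymal pool, against 4) and 5 there under DESeq2 and with no filter. In the endothelial class it was 5 with no filter, in sums per plate and without the female epithelial pool (against 4). It was 1 in e1 under DESeq2, in sums of at least 10 cells and in sums per plate (against 0), 0 for the sinusoidal clusters with e7 moved (against 1), 1 in e5c under DESeq2, without the filter and with thinned cells (against 0), 0 for mural cells in sums per plate (against 1) and 1 in m2c under DESeq2 (against 0). At 20 counts 3 of the 5 genes kept the annotation with the highest share of cells. The cause was not tested.

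Fold changes that reversed were all uncalled. They were -0.10 for Tie1 and -0.16 for Ptprb in e1 and -0.08 for Tek in e2 (DESeq2), -0.04 for Ptprb in e1 and -0.16 for Tek in e5c (thinned cells), and -0.086 for Angpt2 in e2 and -0.01 for Tie1 in the sinusoid (at least 10 cells). In sums per plate they were -1.70 for Angpt2 and 0.029 for Ptprb in e2, -0.049 for Angpt2 and -0.25 for Tie1 in the sinusoid, 0.45 for Angpt2 in m3 and -0.41 for Tek in m2c, and with e7 moved -0.027 for Tek and -0.10 for Tie1. With 1 pool omitted, values ran from -0.041 to 0.285 for Ptprb in e1, -0.24 to 2.40 for Angpt2 in e2, -1.75 to 0.53 for Angpt2 in the sinusoid, -5.11 to 1.25 for Angpt1, -2.83 to 0.27 for Angpt2 and -2.52 to 0.34 for Tek in m3, -4.19 to 0.24 for Angpt1 in mural cells, and -0.64 to 1.87 for Tek and -0.36 to 2.26 for Ptprb in m2c. In m3c against m7c the male pool alone gave -0.15 for Tek and -3.03 for Ptprb.

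With the sex pool as a replicate block, e4 had 1 gene called (against 3) and Ptprb in m3c against m7c was -1.29, and no other call of the 5 genes changed. The numbers mark only sex. The female minus male differences of the classes correlated at 0.128 to 0.208 over 11546 genes.

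Over the settings, genes called numbered 606 to 4497 in the endothelial class (1992 in the main test), 1528 to 4761 in the mesenchymal class (2838), 208 to 998 in e1 (258), 211 to 1102 in e2 (354), 228 to 1446 in the sinusoid (352), 574 to 3073 in e4 (1245), 259 to 4418 in e5c (1530), 300 to 1529 in m3 (603), 157 to 1766 in mural cells (719), 155 to 862 in m2c (520) and 4 to 142 in m3c (5). The split of higher and lower calls moved with DESeq2's scaling, to 1968 and 2529 from 1281 and 711 in the endothelial class, 2713 and 1579 from 2277 and 561 in the mesenchymal class, 187 and 162 from 242 and 16 in e1, 225 and 160 from 339 and 15 in e2, 730 and 716 from 139 and 213 in the sinusoid, 1533 and 1540 from 901 and 344 in e4, 1264 and 3154 from 732 and 798 in e5c, 362 and 275 from 538 and 65 in m3, 740 and 1026 from 216 and 503 in mural cells and 313 and 437 from 361 and 159 in m2c.

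Sums of at least 10 cells gave no value for e5c, and a minimum of 3 cells added no sum outside the finer mesenchymal clusters.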
